A study of Mus musculus with 48 samples.

Results

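The comparison described here asked what a lupus-associated peptide added to the transcriptome of macrophages that were already exposed to IFN-γ. RAW264.7 cells, an established mouse macrophage line, received the 15-mer peptide LE at 100 µg/ml together with IFN-γ at 5 ng/ml (group LE+IFNy), or IFN-γ at 5 ng/ml without a peptide (group IFNy). Cells of both groups grew in DMEM for 72 h, with fresh medium at 48 h. LE copies residues 65 to 79 of the HLA-DR β chain of the lupus-risk DRB1 allele *0301. The members were the 6 letter-labelled libraries of these groups, replicates 1 to 3 of each, out of 48 libraries in the series. For comparison, letter-labelled libraries of cells given IFN-γ with SE (residues 65 to 79 of allele *0401) or with PE (allele *0402), of cells given LE alone and of cells given PBS were used, with 3 libraries in each group and the same doses and times. Cells given SE alone or PE alone, also 3 libraries each, entered the label check and the fits of LE against PBS and of the interaction. The cells are 1 line, and the peptide is a free 15-mer rather than the folded protein. The labels do not say which libraries came from separate cultures, so p-values measure the spread between these libraries, which may be partly technical.

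IFN-γ binds its receptor on macrophages and activates JAK kinases and STAT factors, which raises guanylate-binding proteins, antigen presentation and nitric oxide synthesis. Proliferating macrophages also run a cell cycle in which E2F factors drive the genes of DNA replication, and MYBL2 and FOXM1 drive those of mitosis. Secretory load and sterol level are sensed in the endoplasmic reticulum (ER), where ATF6, IRE1 and SREBP2 control chaperone and cholesterol genes.

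Polyadenylated RNA was sequenced and counted per gene. The 6 libraries held from 21.2 M to 26.9 M counts (M for mega), and levels are given as CPM, the counts scaled to the library total per mega. As a check of the labels, IFN-γ target genes were averaged on the log2(CPM + 0.1) scale. They were from 6.03 to 6.27 in the IFNy and from 6.37 to 6.45 in the LE+IFNy libraries. The 12 letter-labelled libraries without IFN-γ were at 2.61 to 2.84, so these libraries went with their labels as to IFN-γ. The 12 with IFN-γ, with or without a peptide, spanned 6.00 to 6.45, so this check cannot show which peptide was added. Dendritic cell markers summed to 17.9 to 27.7 CPM with IFN-γ and 42.5 to 51.8 CPM with LE added, with Flt3 and Siglech at 0. Of 10 such markers 4 passed the filter on low counts, with 2 called higher, Itgax and Clec9a, and 0 lower. Itgax made up most of the sum, with means of 17.5 and 36.2 CPM. Zbtb46 went the other way, with means of 1.48 and 1.07 CPM, and was not called. Macrophage markers were present, with Adgre1 (F4/80) at 158 CPM or more and Csf1r at 720 CPM or more in every library. Of 12 lymphocyte markers 0 passed the filter on low counts, their summed level was from 0.287 to 0.450 CPM with IFN-γ and from 0.371 to 0.699 CPM with LE added, and Cd3e and Ms4a1 were at 0. Neutrophil and mast cell markers summed to at most 0.615 CPM with IFN-γ and 2.04 CPM with LE added, with Ly6g and Elane at 0. The summed fibroblast, epithelial and endothelial markers were at most 2.58 and 3.58 CPM, with Epcam and Krt8 at 0. Mitochondrially encoded transcripts took from 0.937% to 1.04% of the counts in the IFNy and from 1.20% to 1.36% in the LE+IFNy libraries. The library IFNy replicate 2 stood apart from the other IFNy libraries, with a chi-square per degree of freedom of 14.1 and 13.4 against them and 6.93 between the other two, while the LE+IFNy pairs were at 4.96 to 6.89.

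LE changed the expression of 1972 of 12720 genes tested, 1218 higher and 754 lower, at an edgeR adjusted p under 0.05 and a fold change over 1.5 (a gene past both limits is called here). That is 15.5% of the genes tested, 9.58% higher and 5.93% lower. Of the higher genes 502 rose by more than 2-fold and 87 by more than 4-fold, and of the lower genes 190 fell by more than 2-fold and 10 by more than 4-fold. A further 4447 genes passed the p limit with a smaller change. The 3 libraries of the groups did not overlap for 1201 of the 1218 higher and 724 of the 754 lower genes, where of all genes tested 27.4% were higher and 29.9% lower without overlap. Called genes that were higher had a median transcript length of 3747 bases and a median GC content of 46.2%, and those that were lower 2483 bases and 52.7%, against 3158 bases and 49.7% in genes not called. A smooth trend on length and GC content was then subtracted from the log2 fold changes, with the p-values left unchanged. After this 1695 genes passed both limits, of which 53.9% were higher, in place of 61.8%. Of the 1915 called genes with a known length and GC content, 1483 kept their call and direction. The plot of change against level shows both directions over the whole range of levels.

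**Figure D1:**
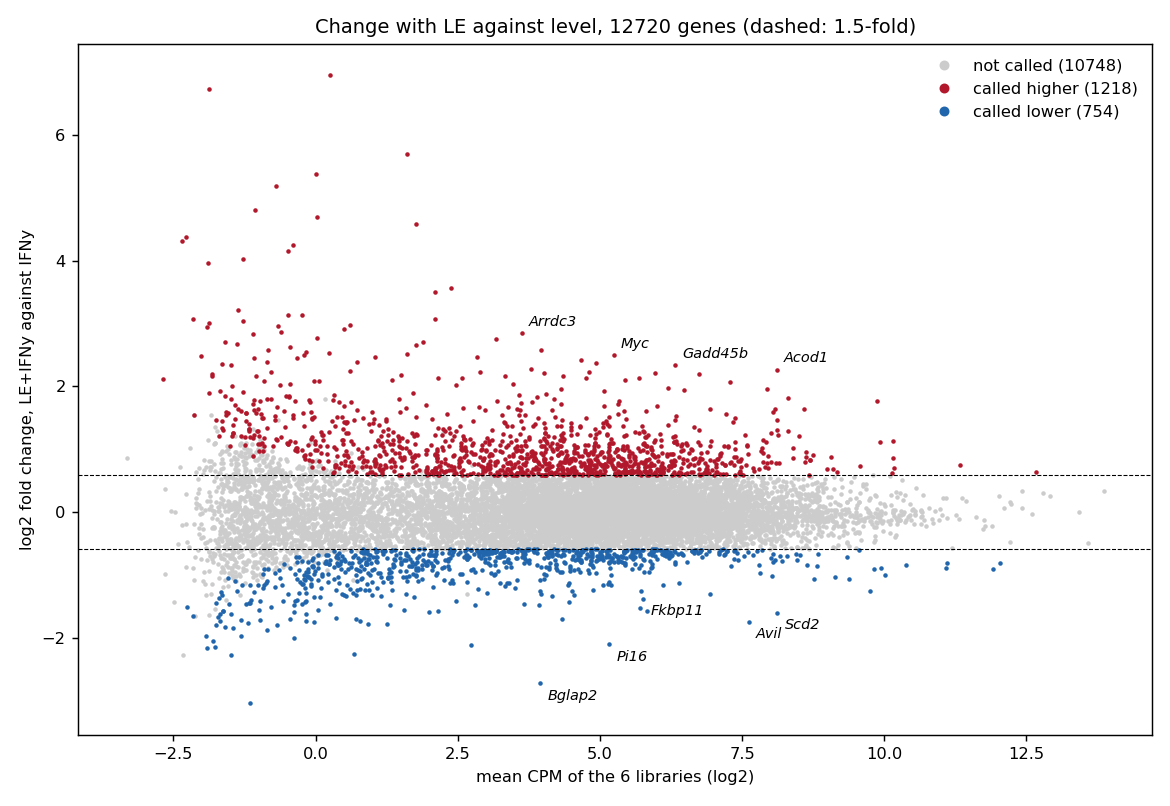
Log2 fold change of LE+IFNy against IFNy (vertical axis) against the mean CPM of the 6 libraries on a log2 axis, with 1 point per gene tested. Red points are the 1218 genes called higher, blue points the 754 called lower, grey points the genes not called and dashed lines the 1.5-fold limits.

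The 12 genes with the largest rise at 10 CPM or more held transcription factors, feedback regulators and receptors. Arrdc3, an arrestin-domain protein that acts on receptor trafficking (chromosome 13, 80883384 to 80896042), was at 3.32, 1.88 and 4.01 CPM with IFN-γ and at 22.4, 18.6 and 23.97 CPM with LE added. The largest log2 fold change of these genes was its 2.84 (SE 0.190, edgeR adjusted p 2.59e-09). Myc, a driver of growth and proliferation (chromosome 15, 61985391 to 61990374), was at 12.3, 7.53 and 14.9 CPM with IFN-γ and at 65.0, 60.0 and 67.8 CPM with LE (log2 fold change 2.50, SE 0.148, edgeR adjusted p 6.45e-10). The rule that chose these genes asks for groups that do not overlap, and IFNy replicate 2 was the lowest of its group for both. Egr1, an early growth response factor, rose from 9.63, 6.01 and 8.54 CPM to 41.7, 38.3 and 47.7 CPM (2.42, SE 0.147). Irf4, an interferon regulatory factor of macrophage and lymphocyte differentiation, rose from 5.41, 4.21 and 4.62 CPM to 23.2, 22.3 and 23.1 CPM (2.28, SE 0.124). Cxcr4, the receptor of the chemokine CXCL12, rose from 10.04, 8.96 and 11.1 CPM to 44.8, 51.9 and 56.9 CPM (2.37, SE 0.111). Acod1, the enzyme that makes itaconate in activated macrophages, rose from 82.0, 124 and 80.7 CPM to 432, 424 and 512 CPM (2.27, SE 0.138). The other 6 were Ptpn14, a tyrosine phosphatase, Dmpk, a kinase, Tnfrsf9 (4-1BB), Gadd45b, a stress-induced growth regulator, Id2, an inhibitor of bHLH factors, and Cxcl11, an interferon-induced chemokine, with log2 fold changes from 2.22 for Cxcl11 to 2.76 for Ptpn14.

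The 12 genes with the largest fall included genes of lipid synthesis. Bglap2 (osteocalcin 2) fell from 22.5, 35.8 and 22.1 CPM to 3.69, 5.35 and 2.93 CPM (log2 fold change -2.72, SE 0.231, edgeR adjusted p 4.02e-08). Bglap2 has near-identical copies, and only unique reads were counted, so its level is uncertain. Pi16, a secreted peptidase inhibitor, fell from 52.5, 71.8 and 50.4 CPM to 14.1, 15.0 and 11.05 CPM (-2.10, SE 0.136), and Cdhr3, a cadherin, from 9.84, 11.7 and 11.04 CPM to 2.70, 2.97 and 1.75 CPM (-2.10, SE 0.172). Avil, an actin-binding protein of the villin family, was at 268, 410 and 231 CPM with IFN-γ and at 98.2, 104 and 65.9 CPM with LE (-1.75, SE 0.178). The groups do not overlap for these genes by the rule that chose them, and IFNy replicate 2 was the highest of its group in each. Scd2 and Fdps, which act in fatty acid and sterol synthesis and are described with their pathway, fell by 1.59 and 1.47 on the log2 scale. Acy1 (aminoacylase), Kbtbd11, Cdsn (corneodesmosin) and Fkbp11, an ER prolyl isomerase, had log2 fold changes from -1.37 to -1.52.

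**Figure D2:**
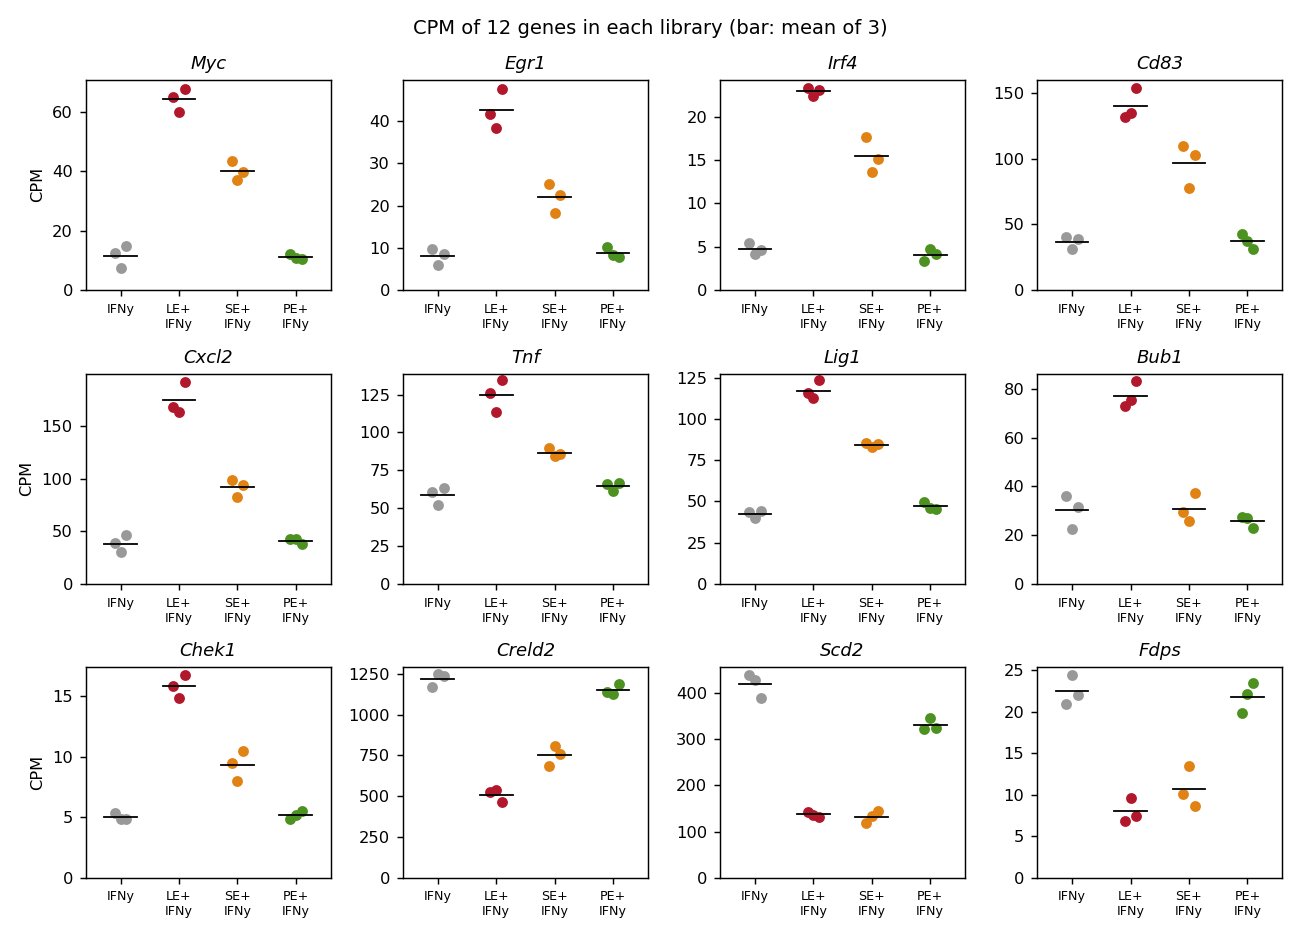
CPM (vertical axis, from 0) of 12 genes in each of 3 libraries of IFN-γ alone and of IFN-γ with LE, SE or PE, with a bar at the mean of 3. The LE+IFNy libraries lie above all IFNy libraries for Myc, Egr1, Irf4, Cd83, Cxcl2, Tnf, Lig1, Bub1 and Chek1 and under all of them for Creld2, Scd2 and Fdps.

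Gene lists, chosen with earlier results of these data known, were described by how many members were called and by their median log2 fold change, beside the median of -0.01 over all genes tested. Over all genes tested 9.58% were called higher and 5.93% lower, the shares to set beside the counts of each list. Chemokines had a median of 1.23, with 14 of 18 members tested called higher and 1 lower. DNA replication and S phase had a median of 0.78 with 38 of 59 higher, mitosis one of 0.52 with 32 of 71, and double-strand break repair one of 0.48 with 19 of 41, with 0 members lower in each of these 3. ER chaperones and the unfolded protein response had a median of -0.54 with 14 of 34 lower and 1 higher, and cholesterol synthesis and SREBP targets a median of -0.50 with 15 of 32 lower and 0 higher. For MHC class II 0 of 12 were called, with a median of -0.23, and for cytosolic ribosomal proteins 0 of 83, with a median of -0.08. These 0 counts are of genes past both limits by edgeR, and 6 of the 12 and 20 of the 83 passed the p limit alone. The plot of list members shows where each list lies.

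**Figure D3:**
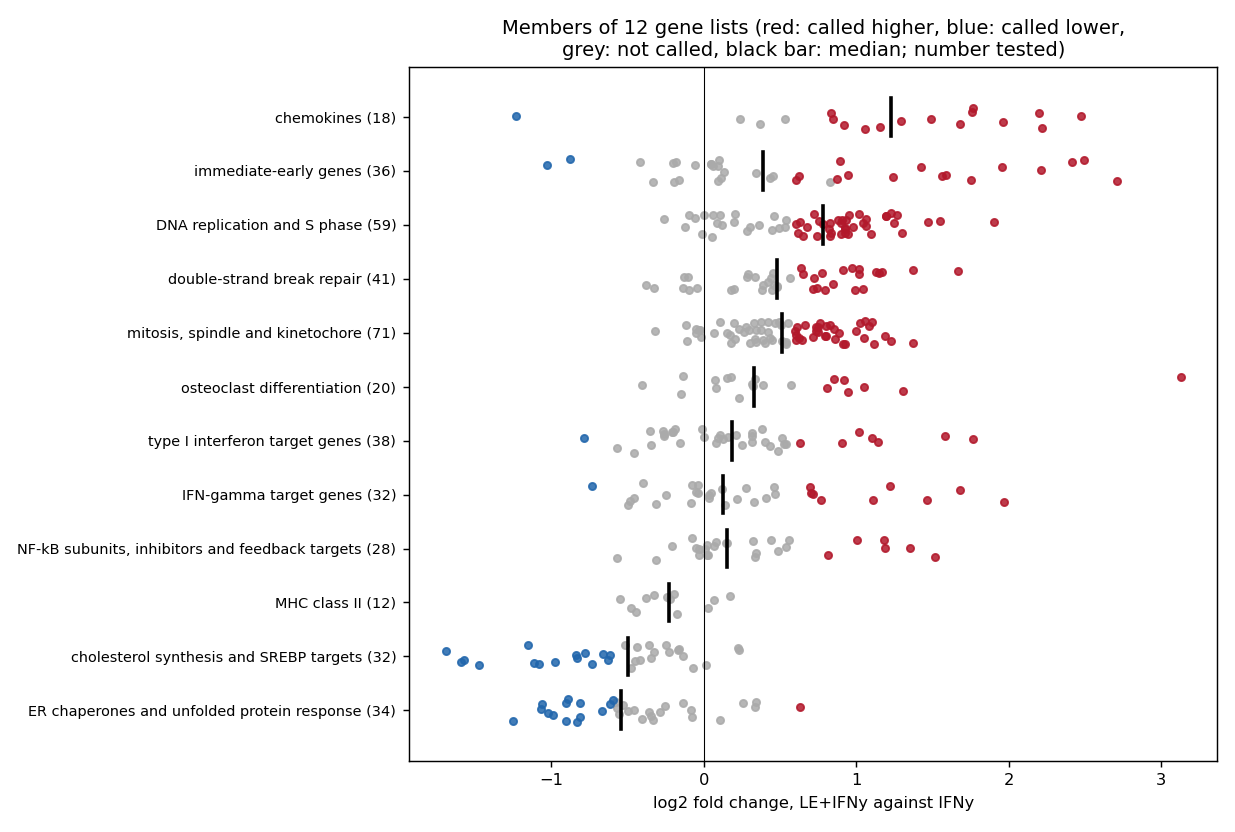
Log2 fold change of LE+IFNy against IFNy (horizontal axis) for the tested members of 12 gene lists, with 1 point per gene, the number tested in brackets and a black bar at the median. Red points were called higher and blue points lower, and the chemokine median of 1.23 and the ER median of -0.54 are the outermost.

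Chemokines, the secreted attractants of leukocytes, rose with LE across both the CC and the CXC family. Summed over the list they were at 966, 883 and 1069 CPM with IFN-γ and at 2642, 2743 and 3030 CPM with LE added. Ccl3 (MIP-1α), one of the most abundant members, rose from 405, 406 and 473 CPM with IFN-γ to 1349, 1415 and 1551 CPM with LE (log2 fold change 1.76, SE 0.0742, edgeR adjusted p 1.42e-11). Cxcl2, a neutrophil attractant, rose from 38.8, 30.3 and 46.1 CPM to 168, 164 and 192 CPM (2.20, SE 0.114), and Ccl22, which attracts regulatory T cells, from 0.779, 0.450 and 0.660 CPM to 4.03, 3.16 and 3.23 CPM (2.47, SE 0.228). Ccl5 (RANTES) rose from 8.03, 7.61 and 8.87 CPM to 32.0, 32.2 and 30.4 CPM, and Cxcl9 and Cxcl10, ligands of CXCR3, by 1.68 and 1.76 on the log2 scale. Pf4 (CXCL4) was the member that fell, from 2.54, 3.27 and 2.31 CPM to 1.14, 1.23 and 1.05 CPM (-1.23, SE 0.223). Ccl3, Ccl4, Ccl9, Pf4 and other members given beyond the rule for named genes were chosen after their values were seen.

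Cytokines and immediate-early genes moved in both directions. The shares over all genes tested were 9.58% called higher and 5.93% lower. Of 26 cytokines and growth factors tested, 10 were called higher and 2 lower (median 0.41). Tnf was at 60.9, 52.1 and 63.3 CPM with IFN-γ and at 126, 114 and 135 CPM with LE (1.10, SE 0.0767, edgeR adjusted p 4.24e-09), and Il1rn, the antagonist of the IL-1 receptor, rose from 155, 102 and 169 CPM to 474, 474 and 533 CPM (1.81, SE 0.138). Il1a was at 0.246, 0.245 and 0.519 CPM and then at 2.47, 2.27 and 2.75 CPM, and Il1b at 1.15 CPM or less in every library of both groups. Csf3 (G-CSF) had 1, 0 and 0 counts with IFN-γ and 71, 58 and 52 counts with LE, a ratio of 167 with an exact 95% counting interval from 29.5 to 6615. Il23a, a subunit of IL-23, fell from 5.25, 4.95 and 4.25 CPM to 1.86, 2.45 and 1.27 CPM (-1.34, SE 0.207). Of 36 immediate-early genes, which are induced within minutes by signals in many cell types, 15 were called higher and 2 lower (median 0.39). Dusp1, a phosphatase that turns off MAP kinases, rose from 24.8, 18.0 and 24.8 CPM to 101, 98.1 and 111 CPM (2.21, SE 0.103). Egr2 and Plk2 rose by 2.71 and 1.96 on the log2 scale. Nr4a2 and Klf2, a nuclear receptor and a factor that restrains inflammation, had log2 fold changes of -1.03 (SE 0.194) and -0.87 (SE 0.119). Fos, Fosb, Junb and Nr4a1 were not called, with log2 fold changes from -0.33 to 0.11.

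Of 28 NF-κB subunits, inhibitors and feedback targets, 6 were called higher and 0 lower (median 0.15), against 9.58% and 5.93% of all genes tested. Tnfaip3 (A20), an inhibitor of NF-κB signalling, rose from 10.1, 10.3 and 8.44 CPM to 27.0, 25.1 and 29.8 CPM (1.51, SE 0.120, edgeR adjusted p 1.76e-08), Nfkbiz by 1.35 and Traf1 by 1.19 on the log2 scale. Promoter windows from RefSeq (GRCm38.p6, 250 bases before to 50 after a start site) were at hand for 24 of these genes and 12 of the 18 chemokines. The NF-κB motif (GGG and TTCC with 3 bases between), searched on both strands, was in 13 of 32 windows of the NF-κB list (40.6%) and 3 of 13 chemokine windows (23.1%), against 5.56% of all 32851 windows and 6.5% of those of tested genes. Called members held it in 3 of 5 windows of the NF-κB list and in 3 of 10 chemokine windows. Most windows of the NF-κB list with the motif belonged to members not called, among them Nfkb2, Nfkbia and Nfkbie. The stretches that hold it in Cxcl2, Cxcl10 and Tnfaip3 are shown because these genes rose, with the motif in capitals. In Cxcl2 2 matches that overlap each other and 1 more lie 97, 96 and 78 bases before the start.
Cxcl2 (chr5:90903769-90903868, strand +): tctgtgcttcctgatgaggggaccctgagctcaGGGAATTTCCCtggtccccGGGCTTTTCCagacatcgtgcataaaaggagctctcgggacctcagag
Cxcl10 (chr5:92348960-92349059, strand -): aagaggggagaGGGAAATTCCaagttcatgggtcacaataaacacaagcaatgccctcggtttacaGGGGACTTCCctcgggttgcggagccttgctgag
Tnfaip3 (chr10:19015411-19015470, strand -): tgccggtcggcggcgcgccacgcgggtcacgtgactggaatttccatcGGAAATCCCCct

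Genes of DNA replication and S phase rose with LE. Summed over the list they were at 2440, 2270 and 2492 CPM with IFN-γ and at 3680, 3636 and 3909 CPM with LE added. Lig1, the ligase that joins Okazaki fragments (chromosome 7, 13277283 to 13311433), rose from 43.6, 39.9 and 44.4 CPM to 116, 113 and 123 CPM (log2 fold change 1.47, SE 0.0620, edgeR adjusted p 1.42e-11). Cdc7, the kinase that fires replication origins, rose from 6.60, 6.63 and 6.37 CPM to 16.5, 19.3 and 21.1 CPM (1.55, SE 0.113), and Ccne2, cyclin E2, from 1.23, 1.60 and 1.37 CPM to 5.36, 5.68 and 4.50 CPM (1.90, SE 0.221). The groups did not overlap for these genes. IFNy replicate 2 was the lowest of its group for Lig1 and the highest for Cdc7 and Ccne2. Of the helicase genes Mcm2 to Mcm7, 5 of 6 were called, with log2 fold changes from 0.83 for Mcm3 to 1.25 for Mcm6, and Mcm2 was at 0.12 (edgeR adjusted p 0.0559). Pcna, the sliding clamp, was at 119, 113 and 125 CPM and then at 198, 218 and 234 CPM (0.88, SE 0.0682). Members not called included Ccne1, Fen1, Tk1 and Tyms, with log2 fold changes from -0.10 to 0.31. In bulk RNA, more cells in S phase and more RNA of these genes per cell cannot be told apart.

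Repair genes of the same part of the cell cycle rose as well. Chek1, the checkpoint kinase of stalled forks, rose from 5.33, 4.87 and 4.86 CPM to 15.8, 14.9 and 16.8 CPM (1.67, SE 0.116, edgeR adjusted p 3.97e-09). Brip1, a helicase that binds BRCA1, rose from 10.3, 9.86 and 11.7 CPM to 25.4, 25.5 and 30.9 CPM (1.38, SE 0.110). Brca1, which acts in homologous recombination, had a log2 fold change of 1.02. Of the genes of non-homologous end joining, 4 that were not called were Xrcc6 at -0.38, Xrcc5 at -0.14, Prkdc at -0.10 and Lig4 at 0.29. Of 29 p53 targets 6 were called higher, among them Gadd45b, Plk2 and Gadd45g, and 0 lower (median 0.10), against 9.58% and 5.93% of all genes tested.

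The E2F motif was looked for in the promoters of the replication list, on both strands and in 2 forms that were counted separately. TTTCCCGC was in 8 of 58 windows (13.8%) against 1.07% of all windows, and TTTGGCGC in 8 of 58 windows (13.8%) against 0.514%. Among the windows of genes tested in these cells the shares were 2.05% and 0.975%. Windows of called members held the 2 forms in 5 of 34 (14.7%) and 6 of 34 cases (17.6%), near the shares of the whole list. Stretches of Mcm6, Pola1 (the catalytic subunit of DNA polymerase α) and Mcm7 are shown as called members that hold a match before the start, with the match in capitals. Mcm6 has matches 110 and 47 bases before its start.
Mcm6 (chr1:128359736-128359835, strand -): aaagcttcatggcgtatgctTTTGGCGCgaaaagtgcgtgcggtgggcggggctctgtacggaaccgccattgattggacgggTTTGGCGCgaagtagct
Pola1 (chrX:93632236-93632335, strand -): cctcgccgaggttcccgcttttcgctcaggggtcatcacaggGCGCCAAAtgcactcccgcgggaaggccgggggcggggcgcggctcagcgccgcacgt
Mcm7 (chr5:138171989-138172088, strand -): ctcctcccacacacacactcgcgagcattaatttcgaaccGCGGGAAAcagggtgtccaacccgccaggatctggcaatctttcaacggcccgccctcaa

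Mitotic genes also rose with LE, with more spread among the IFNy libraries. Summed over the list they were at 3844, 2865 and 3857 CPM with IFN-γ and at 4782, 4756 and 5316 CPM with LE added, so that IFNy replicate 2 lay well under the other two. Bub1, a kinase of the spindle checkpoint (chromosome 2, 127801122 to 127831865), was at 36.2, 22.6 and 31.7 CPM with IFN-γ and at 73.1, 75.5 and 83.3 CPM with LE (log2 fold change 1.37, SE 0.138, edgeR adjusted p 2.78e-07). Ncapg2, a condensin subunit, rose from 25.5, 18.0 and 19.9 CPM to 50.3, 45.4 and 51.2 CPM (1.23, SE 0.126), and Mki67, the proliferation antigen Ki-67, from 249.6, 163 and 259 CPM to 445, 400.5 and 508 CPM (1.03, SE 0.138). Members that were not called, chosen after their values were seen, included Plk1 at -0.11 (edgeR adjusted p 0.440), Cdc20 at -0.12 and Ccnb2, cyclin B2, at -0.32 (edgeR adjusted p 0.0279). Without IFNy replicate 2 the list had 21 members called higher in place of 32, and Prr11 and Hmmr were then at 0.55 and 0.45, under the fold limit. Without LE+IFNy replicate 3 it had 26, and Hmmr was at 0.53. After subtraction of the trend on length and GC content it had 19. In each of these cases 0 members were called lower.

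The cell cycle homology region, here the letters TTTGAA on either strand, was in 48 of 63 promoter windows of the mitosis list (76.2%) against 17.9% of all windows and 12.3% of those of tested genes. Windows of called members held it in 23 of 30 cases (76.7%), so it did not set called members apart within the list. Stretches of Ncapg and Ncapg2, which encode condensin subunits, and of Mki67 are shown as called members, with the motif in capitals. It lies 30 bases before the start in Ncapg, 18 in Ncapg2 and 116 and 98 in Mki67. In Mki67 the letters ccaat, a box often found beside this motif, stand further upstream.
Ncapg (chr5:45669850-45669924, strand +): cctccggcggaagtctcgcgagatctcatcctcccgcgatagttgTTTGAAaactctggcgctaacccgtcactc
Ncapg2 (chr12:116405361-116405435, strand +): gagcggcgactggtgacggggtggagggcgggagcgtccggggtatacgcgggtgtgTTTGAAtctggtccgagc
Mki67 (chr7:135716440-135716529, strand -): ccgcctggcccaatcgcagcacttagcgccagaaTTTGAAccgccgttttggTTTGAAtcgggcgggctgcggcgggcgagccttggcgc

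Genes of ER protein folding fell with LE. Summed over the list they were at 47884, 47360 and 47096 CPM with IFN-γ and at 30717, 31122 and 27856 CPM with LE added. Creld2, an ER-resident disulfide isomerase-like protein (chromosome 15, 88819646 to 88826683), fell from 1171, 1249.7 and 1237 CPM to 523, 538 and 461 CPM (log2 fold change -1.25, SE 0.0645, edgeR adjusted p 1.13e-10). Hsp90b1 (GRP94), the ER form of HSP90, fell from 4999, 5283 and 4762 CPM to 2677, 2837 and 2441 CPM (-0.90, SE 0.0557), and Calr, the lectin chaperone calreticulin, from 5027, 5794 and 5296 CPM to 3144, 3103 and 2858 CPM (-0.81, SE 0.0608). Dnajc3 (p58IPK), an inhibitor of the kinase PERK, had a log2 fold change of -1.06 and Sdf2l1 of -1.07. Hspa5 (BiP), the most abundant member, was at 15321, 13076 and 14856 CPM and then at 10470, 10564 and 9382 CPM, without overlap, and its log2 fold change of -0.49 (SE 0.0617) stayed under the fold limit. The sensors and their target were measured too. Ern1, which encodes IRE1α, rose by 0.63 (SE 0.0842), Atf6 was at -0.14 and Xbp1, the target of IRE1α, at 0.11 (edgeR adjusted p 0.0796). Of 35 ATF4 and CHOP targets tested, 1 was called higher and 3 lower (median -0.10), against 9.58% and 5.93% of all genes tested.

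The ER stress element, CCAAT and CCACG with 9 bases between on either strand, was in 8 of 27 promoter windows of the ER list (29.6%) against 0.119% of all windows. It was in 6 of the 13 windows of called members, which are shown here with the element in capitals. Hsp90b1 holds it 212 and 107 bases before its start, and the others hold it from 162 bases before the start in Calr to 44 in Syvn1.
Creld2 (chr15:88819466-88819565, strand +): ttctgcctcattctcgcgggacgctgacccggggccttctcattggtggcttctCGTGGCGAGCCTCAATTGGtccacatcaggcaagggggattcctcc
Dnajc3 (chr14:118937782-118937881, strand +): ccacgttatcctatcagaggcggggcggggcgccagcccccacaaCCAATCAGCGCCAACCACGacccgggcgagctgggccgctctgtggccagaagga
Pdia6 (chr12:17266449-17266548, strand +): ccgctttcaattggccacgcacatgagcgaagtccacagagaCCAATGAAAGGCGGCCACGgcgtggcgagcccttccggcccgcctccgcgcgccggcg
Hsp90b1 (chr10:86705515-86705674, strand -): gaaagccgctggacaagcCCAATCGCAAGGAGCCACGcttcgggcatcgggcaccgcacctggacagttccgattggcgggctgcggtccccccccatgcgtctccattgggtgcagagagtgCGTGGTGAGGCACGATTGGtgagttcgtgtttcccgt
Calr (chr8:84847032-84847131, strand -): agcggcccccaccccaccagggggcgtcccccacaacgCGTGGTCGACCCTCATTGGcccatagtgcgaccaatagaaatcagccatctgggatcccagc
Syvn1 (chr19:6046486-6046575, strand +): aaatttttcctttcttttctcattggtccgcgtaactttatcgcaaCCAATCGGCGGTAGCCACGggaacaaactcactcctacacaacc

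Genes of cholesterol and fatty acid synthesis fell with LE. Summed over the list they were at 2344, 2332 and 2154 CPM with IFN-γ and at 1449, 1390 and 1363 CPM with LE added. Scd2, a stearoyl-CoA desaturase (chromosome 19, 44293674 to 44306864), fell from 440, 429 and 389 CPM to 143, 137 and 132 CPM (log2 fold change -1.59, SE 0.0664, edgeR adjusted p 1.42e-11). The spread within each group was small beside these differences. Fdps, which makes farnesyl diphosphate, was at 20.9, 24.5 and 22.03 CPM and then at 6.89, 9.62 and 7.47 CPM, and Fasn, fatty acid synthase, at 297, 298 and 260 CPM and then at 175, 154 and 146 CPM. Srebf2, the main regulator, was not called, at -0.23 (SE 0.0473). Insig1, a target of SREBP2 that holds it in the ER, was at 0.23 (SE 0.0681), opposite in sign. The sterol regulatory element, as the letters TCACNCCAC on either strand, was in 1 of 29 promoter windows of the list (3.45%) and in 0 of 10 windows of called members, against 1.24% of all windows. Of 14 LXR targets and genes of cholesterol efflux, 2 were called higher, Abca1 and Nr1h3, and 2 lower, Apoe and Lpcat3, against 9.58% and 5.93% of all genes tested.

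Genes that IFN-γ itself induces were split. Of 32 IFN-γ targets, 9 were called higher and 1 lower with a median of 0.13, and of 38 type I interferon targets 7 higher and 1 lower with a median of 0.19. The shares of all genes tested were 9.58% higher and 5.93% lower. Pim1, a survival kinase, rose from 31.0, 28.8 and 30.1 CPM to 118, 106 and 125 CPM (log2 fold change 1.97, SE 0.0849, edgeR adjusted p 1.79e-11), and Gbp2, a guanylate-binding protein, from 157, 135 and 151 CPM to 395, 381 and 439 CPM (1.47, SE 0.0752). Irf1, the primary IFN-γ-induced factor, was at 144, 189 and 147 CPM and then at 117, 115 and 129 CPM (-0.40, SE 0.0903, under the fold limit). Socs1, a brake on JAK kinases, fell from 5.90, 7.44 and 6.04 CPM to 4.03, 3.79 and 3.71 CPM (-0.73, SE 0.156). Rsad2 (viperin) rose by 1.77, Siglec1 by 1.14 and Ifit1 by 1.10 on the log2 scale, while Isg15 and Mx1 were at -0.36 and -0.19. The MHC class II list summed to 10478, 9806 and 11093 CPM with IFN-γ and to 7737, 7971 and 8430 CPM with LE. In it Cd74, the invariant chain, was at 5499, 5315 and 5885 CPM and then at 3845, 3975 and 4068 CPM (log2 fold change -0.48, SE 0.0550, edgeR adjusted p 1.44e-06), and H2-Ab1 at -0.55 (SE 0.0971). Without IFNy replicate 2, 2 members of this list were called lower.

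Among surface molecules, Cd83, a marker of activated antigen-presenting cells, rose from 40.5, 31.5 and 39.1 CPM to 132, 135 and 154 CPM (1.94, SE 0.124, edgeR adjusted p 1.62e-09). Cd274 (PD-L1) rose from 103, 114 and 99.4 CPM to 223, 209 and 245 CPM (1.11, SE 0.0730). Of 16 costimulatory and checkpoint ligands 4 were called higher and 1 lower, of 23 members of the TNF superfamily 5 higher and 0 lower, and of 22 chemoattractant and purine receptors 5 higher and 2 lower. The medians of these lists were -0.01, 0.29 and 0.20, and of all genes tested 9.58% were called higher and 5.93% lower. Nos2, the inducible nitric oxide synthase, was at 323, 270 and 315 CPM and then at 579, 513 and 594 CPM (0.91, SE 0.0796), and Odc1, which makes putrescine from ornithine, rose by 1.23 (SE 0.0921). Slc7a2, an arginine transporter, had 0, 1 and 4 counts with IFN-γ and 34, 37 and 38 with LE, a ratio of 20.1 (exact 95% counting interval 8.34 to 63.0). Of 20 osteoclast genes 7 were called higher and 0 lower (median 0.33), among them Car2, carbonic anhydrase 2, which rose from 63.3, 56.8 and 66.2 CPM to 144, 139 and 173 CPM (1.31, SE 0.0934). Adgre1, Msr1 and Itgam, markers of the macrophage itself, rose by 0.93, 0.82 and 0.80 on the log2 scale. They were the 3 of 17 such markers called higher, with 0 lower, against 9.58% called higher of all genes tested. The list was mixed, with a median of 0.12, 10 of 17 above 0 and the lowest at -0.44.

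Genes of energy metabolism, degradation and cell death were read beside the 15.5% called of all genes tested. Of 77 nuclear-encoded respiratory chain genes 1 was called higher, Uqcrh, and 0 lower (median -0.16), and of 7 mitochondrially encoded ones tested 1 higher, mt-Co1, and 0 lower. mt-Co1 was at 5158, 4941 and 5336 CPM with IFN-γ and at 7614, 8546 and 7624 CPM with LE (0.64, SE 0.0729), and it was at 0.49 after subtraction of the length and GC trend and at 0.58 without LE+IFNy replicate 2, under the fold limit in both. Of 35 proteasome subunits 0 were called higher and 1 lower, Psmb5, of 28 lysosomal genes 4 higher and 0 lower, of 29 glycolysis genes 4 higher and 1 lower, and of 27 genes of necroptosis and death receptor signalling 4 higher and 1 lower. Of 11 clustered histone genes tested, whose transcripts mostly lack poly(A) tails, 2 were called lower, among them Hist1h1c, a linker histone, which fell from 31.4, 27.7 and 31.4 CPM to 13.7, 13.2 and 13.4 CPM (-1.15, SE 0.0790).

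**Figure D4:**
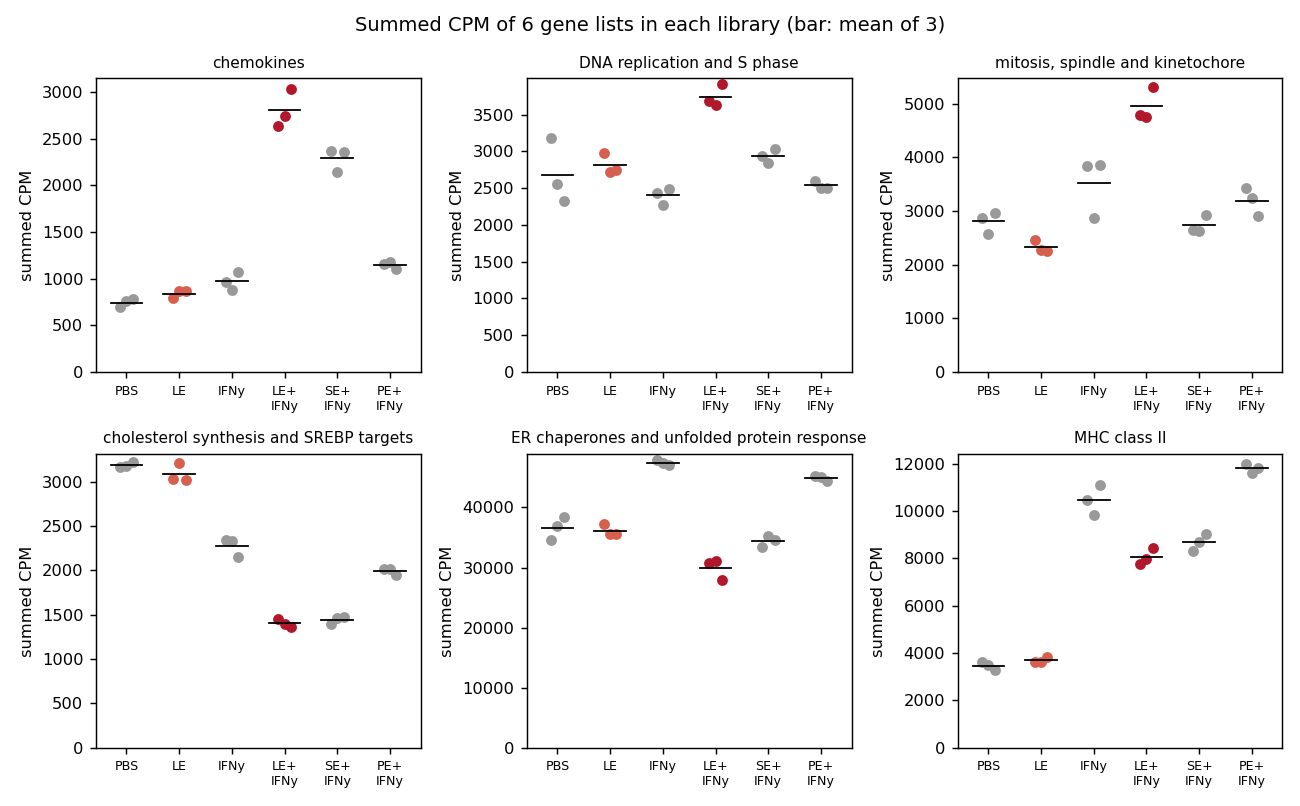
Summed CPM (vertical axis, from 0) of 6 gene lists in each letter-labelled library of 6 groups, with a bar at the mean of 3, the LE+IFNy libraries in dark red and the LE libraries in light red. With LE added to IFN-γ the chemokine sum lies at 2642 to 3030 CPM and the ER sum at 27856 to 31122 CPM, outside the range of every other group shown.

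LE was compared directly with the other peptides at the same dose and time, in the fit of the 12 libraries with IFN-γ. The peptides copy the same residues of different HLA-DR β chains. Directly tested, 627 of 12720 genes differed between LE+IFNy and SE+IFNy (4.93%), 421 higher with LE (3.31%) and 206 lower (1.62%). Between LE+IFNy and PE+IFNy 2752 genes differed (21.6%), 1615 higher with LE (12.7%) and 1137 lower (8.94%). Against IFN-γ alone SE changed 940 genes (7.39%), 637 higher (5.01%) and 303 lower (2.38%), and PE 80 (0.629%), 57 higher (0.448%) and 23 lower (0.181%). These 3 comparisons share the IFNy libraries, so their values are only set side by side here. Mitosis was the list in which LE and SE stood furthest apart. Of its 71 members, 61 were higher with LE than with SE and 0 lower, with a median difference of 0.91 on the log2 scale against -0.01 over all genes. SE with IFN-γ gave this list a median of -0.32 with 17 members lower and 0 higher, and PE a median of -0.13 with 0 called. Prr11, a mitotic regulator, was at 50.1, 49.9 and 64.4 CPM with LE and at 16.6, 17.3 and 19.6 CPM with SE, a difference of 1.61 (SE 0.163, edgeR adjusted p 5.99e-06). Hmmr, a spindle-binding protein, was at 47.4, 46.0 and 52.9 CPM with LE and 17.8, 18.2 and 21.98 CPM with SE (1.32, SE 0.117), and Bub1 differed by 1.31 (SE 0.137). Replication genes differed less, with 11 of 59 higher with LE (median difference 0.37), and repair genes with 14 of 41 (0.43). Across 12343 genes the LE-SE difference had a Spearman's rho of 0.356 with transcript length and of -0.466 with GC content, where genes are not independent replicates. The mitosis list had a median length of 3674 bases and a median GC content of 46.1%, against 3160 bases and 49.7% over all genes tested. The part of length and GC content in the LE-SE difference was not tested.

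For other lists the direct test of LE against SE called few members. Of the chemokines 1 was higher with LE and 2 were lower, and of the 32 cholesterol genes 1 was lower. Scd2 differed by 0.05 (95% interval -0.09 to 0.18, edgeR adjusted p 0.623). Of the 34 ER genes 0 were called by edgeR, and Creld2, at -0.58 (SE 0.0639, edgeR adjusted p 1.22e-05), lay just under the fold limit. Ccl5 was the chemokine with the largest opposite difference, at 30.4 to 32.2 CPM with LE and at 74.6 to 89.7 CPM with SE (-1.38, SE 0.0738). Of the 12 genes with the largest rise, 4 were higher with LE than with SE, Arrdc3, Myc, Egr1 and Cxcr4, by 0.67 to 0.99. Irf4 differed by 0.55 (SE 0.109, 95% interval 0.32 to 0.78), under the fold limit. Of the 12 with the largest fall, 6 were lower with LE than with SE, among them Cdhr3 at -1.44 and Pi16 at -0.94. For SE against IFN-γ, 12 of the 12 highest and 11 of the 12 lowest were called as well, where of all genes 5.01% were called higher and 2.38% lower. The 24 genes were chosen by their LE+IFNy and IFNy values. Tests of LE against SE, and of SE or PE against IFN-γ, use part of these values again, so such counts depend partly on the choice. For PE against IFN-γ 0 of these 24 genes were called by edgeR, among the 80 that PE changed in all.

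**Figure D5:**
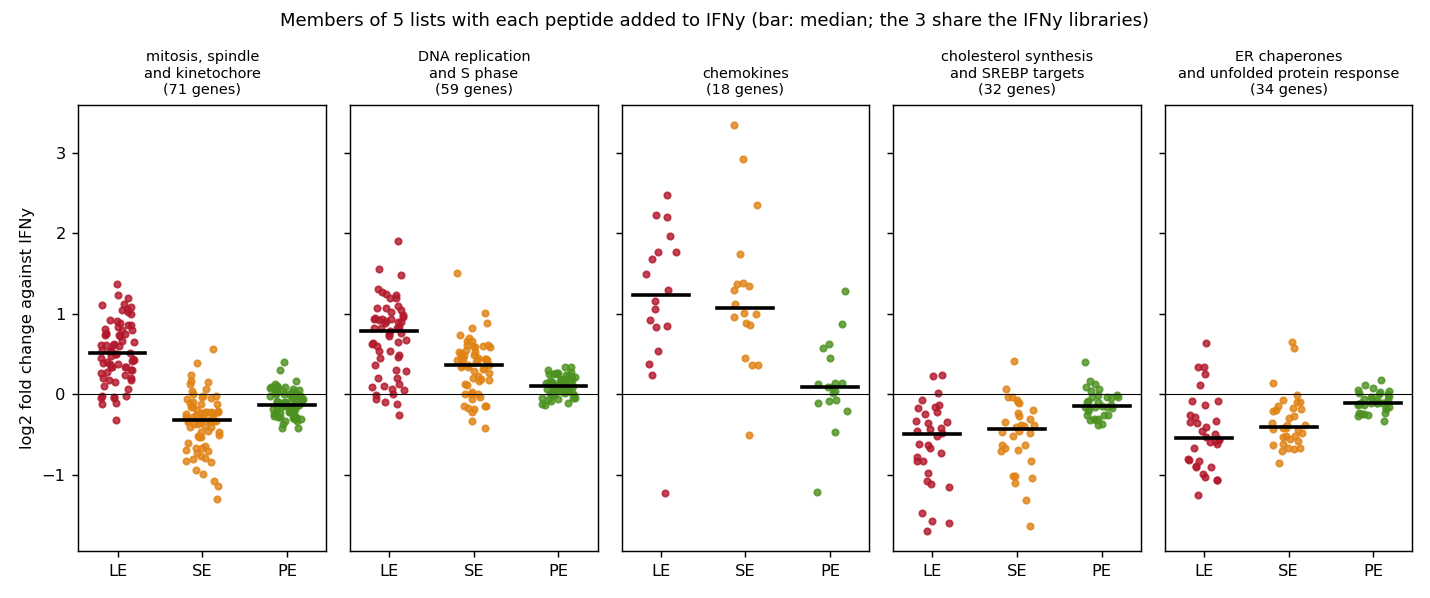
Log2 fold change against IFN-γ alone (vertical axis) of the tested members of 5 gene lists with LE, SE or PE added, with 1 point per gene and a black bar at the median. For mitosis the medians are 0.52 with LE, -0.32 with SE and -0.13 with PE, while for chemokines, cholesterol and ER genes those of LE and SE lie on the same side of 0. The 3 peptides are set against the same IFNy libraries.

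Without IFN-γ, LE changed few genes. Of 12420 genes tested against PBS 3 were called (0.0242%), all higher, and 1953 had an unadjusted p under 0.05. With no filter on low counts 57 were called, 22 higher and 35 lower, and with the replicate block 7, 6 higher and 1 lower. None of the libraries was shared with the comparison under IFN-γ. The 1098 genes called higher under IFN-γ that were also measured without it had a median log2 fold change of -0.13 with LE alone, and 354 of them (32.2%) were above 0. The 729 called lower had a median of 0.05, and 61.3% were above 0. Over all 12163 such genes the median was -0.01 and 48.7% were above 0. The change with LE alone had a Spearman's rho of -0.411 with transcript length and 0.458 with GC content across genes, where the change under IFN-γ had 0.217 and -0.280, and the part of these trends was not tested. Myc was at 1.77, 3.26 and 5.63 CPM with PBS and at 2.46, 5.32 and 4.67 CPM with LE alone, and Arrdc3 at 1.72 to 2.20 and at 1.36 to 2.61 CPM, so these groups overlapped. Avil was called in both settings in opposite directions, at 222, 242 and 194 CPM with PBS and at 316, 316 and 324 CPM with LE alone (0.59, SE 0.0791, edgeR adjusted p 0.0147). Its log2 fold change with LE alone, 0.588, lay just over the fold limit of 0.585. DESeq2 kept 1 of the 3 genes called with LE alone.

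The difference between the LE effect with and without IFN-γ was tested as an interaction over the 24 letter-labelled libraries. It was called for 2471 of 13096 genes (18.9%), 1478 with a more positive (11.3%) and 993 with a more negative change under IFN-γ (7.58%), and for 47 of the 71 mitosis genes, 30 of the 59 replication genes, 15 of the 34 ER genes and 16 of the 32 cholesterol genes in the direction of their change under IFN-γ. The interaction was 2.21 for Myc (SE 0.436, edgeR adjusted p 0.000344), 2.72 for Irf4 (SE 0.286), 1.60 for Bub1 (SE 0.206), -1.30 for Creld2 (SE 0.160) and -1.50 for Scd2 (SE 0.209). For Nos2 it was 0.54 (SE 0.505, edgeR adjusted p 0.430), with a spread of 7.85 to 32.2 CPM among the PBS libraries, and the call was not made.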

How the data were processed

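By the study's methods and per the labels, stranded poly(A) libraries from 200 ng of RNA were read single-ended over 100 bases, and uniquely mapped reads were counted per gene with featureCounts (Rsubread 1.5.0p3) on GRCm38.p5 with GENCODE M12. The authors deposited 1 table of raw read counts for 49568 genes and 48 libraries, without normalization. In it 26 names look like dates and 4 lines carry repeated names. These stayed in totals and fits and are not named.

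The counts were tested with edgeR 4.0.16 in R 4.3.3 (TMM scaling, filterByExpr, quasi-likelihood F test) with Benjamini-Hochberg adjustment over all genes tested. LE+IFNy was compared with IFNy, SE+IFNy and PE+IFNy in 1 fit of the 12 letter-labelled libraries with IFN-γ, and LE with PBS in the 12 without it. DESeq2 1.42.0 was an alternative. Scripts were checked on simulated counts. CPM are counts over the library total, and log2 fold changes and SE come from the fit.

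The members, gene lists and tests were chosen with earlier results of these data known. Named genes were the 12 highest and 12 lowest called genes at 10 CPM or more without overlap, up to 3 called members per list at 1 CPM or more, 8 genes the study names or measures, and the 5 highest and 5 lowest genes of LE against SE. A few of them are not reported here. Of 12720 genes tested, 12343 matched GENCODE M21 for position (GRCm38), length and GC content, and 9257 had a RefSeq promoter window. The exact intervals of count ratios cover counting error only, and reads carry no molecular identifiers. Intervals of log2 differences come from the fit, which includes the spread between libraries.

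Replicate numbers of IFNy and LE+IFNy were checked as pairs by the correlation of their deviations from the group means, which was 0.192, 0.114 and 0.155 for the same numbers, all over 0.1, so the numbers were taken as pairing these libraries. Different numbers of these groups reached 0.0596. Other groups of the same fit were mixed. IFNy replicate 2 had 0.110 with SE+IFNy replicate 2, but -0.0382 with PE+IFNy replicate 2 and 0.279 with PE+IFNy replicate 3. The main fits held no block for the replicate number, which enters only as an alternative. No label gives a batch other than the letter or HLA label, and the HLA-labelled libraries enter only alternatives.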

Additional observations from a re-analysis of the deposited data

Results flagged for a closer look

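The effect of LE differed between cells with and without IFN-γ for 2471 of 13096 genes by the interaction test (edgeR, 24 letter-labelled libraries). Of the 120 named genes 100 had a called interaction. Named genes were mostly chosen for their change under IFN-γ, which is part of the interaction, so this share follows partly from the choice. Of the mitosis list 47 members had one, all with a more positive change under IFN-γ. Avil had an interaction of -2.35 in log2 units (SE 0.224, edgeR adjusted p 5.35e-08), with all 3 LE libraries above all 3 PBS libraries and all 3 LE+IFNy libraries under all 3 IFNy libraries. The rise of Avil with LE alone, at 0.588, was just over the fold limit of 0.585.

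In the HLA-labelled libraries, which are in none of the comparisons above, the mean log2(CPM + 0.1) of the IFN-γ targets was 6.48 or more in the 6 whose labels give LE or PE and no IFN-γ, and 2.81 or less in the 6 labelled IFNy or SE+IFNy. The 12 letter-labelled libraries without IFN-γ had 2.61 to 2.84, so the HLA labels and this response did not go together. The order of columns in the deposited table also places HLA-labelled libraries beside letter-labelled ones of other groups than their labels give. Groups were taken from the labels, so every count that uses these libraries rests on labels in doubt.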

How the results depend on the processing

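For LE+IFNy against IFNy, the count of 1972 called genes stayed within 1.5 times under DESeq2-type size factors, DESeq2 (1848), no filter, other choices of letter-labelled libraries and subtraction of the length and GC trends. That subtraction changed the log2 fold changes only and not the p-values. With it 9 named genes, mt-Co1 among them, no longer passed the fold limit. With the replicate number as a block it was 1974, and 1923 with the block on the 6 libraries alone, an alternative added after seeing the data. The block changed no call of a named gene. Leaving out 1 library gave 1775 to 2201 (higher 1143 to 1349, lower 632 to 852). It gave 435 to 692 for LE against SE, 2366 to 2938 for LE against PE, 2138 to 2671 for the interaction and 1 to 3 for LE against PBS, where 1 gene was called without any 1 of PBS replicates 1 and 3 and LE replicates 1, 2 and 3. Of the named genes, Ticam1 (0.51) and Rnaset2a (-0.55) also went under the fold limit without IFNy replicate 2, and Rnaset2a (-0.56) without IFNy replicate 3. LE against PBS gave 57 genes with no filter (22 higher, 35 lower) and 7 with the replicate block (6 higher, 1 lower).

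Adding the HLA-labelled libraries moved most counts. As labelled, 110 genes were called for LE+IFNy against IFNy (56 higher, 54 lower), 1 against SE+IFNy, 0 against PE+IFNy, 0 for LE against PBS (1813 with an unadjusted p under 0.05 by edgeR) and 0 for the interaction (239). With the label series as a term these were 1048 (662 higher, 386 lower), 374 against PE+IFNy, 1123 for LE against PBS and 1 for the interaction. Of the 120 named genes, 99 kept their direction but no longer passed the threshold as labelled, and 41 with the series as a term. Log2 fold changes turned sign, as labelled, for Ccne2 (-0.65), Abca1 (-0.15), Uqcrh (-0.12), Atp6v0d2 (-0.58), Xiap (-0.0668) and Il1r1 (0.51), and with the series as a term for Bglap2 (0.37), Uqcrh (-0.29), Atp6v0d2 (-0.18), Il1r1 (0.31), Socs1 (0.22), Rnaset2a (0.0604) and Pdgfra (-0.0801). The cause was not tested. Genes of a few counts per library are limited by depth, and their fold changes are uncertain.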
